A study of Xenopus laevis with 12 samples.

Results

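The genes for the proteins of the cytosolic ribosome were followed through whole Xenopus laevis embryos sequenced at stage 9.5. A gene was taken when its name, without the homeolog suffix, had the form rpl or rps with a number, rplp with a digit from 0 to 2, or rpsa. This rule used names only and found 141 of the 18892 genes of the count table, under 77 base symbols. All 141 passed the filter on low counts, as did 18791 genes of the table in all. They comprised 78 genes of the large subunit, 58 of the small subunit and 5 of the stalk. Xenopus laevis is an allotetraploid frog, and many genes are kept as a pair of homeologs on the L and S subgenomes. Among the 141 genes were 71 L and 69 S homeologs, which made 63 pairs, and a copy of rps9 listed without a suffix beside its pair.

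The embryos belonged to 4 groups of 3 libraries: genistein, BIO, Chiron and control. Genistein is a soy isoflavone that inhibits tyrosine kinases, which was added to 4-cell embryos according to the series text. BIO is the indirubin derivative 6-bromoindirubin-3'-oxime. Chiron is the aminopyrimidine CHIR 99021. Both inhibit glycogen synthase kinase 3 and thereby activate Wnt signalling. The sources used here do not give the doses, the treatment of the control embryos, or when BIO and Chiron were added. Each replicate was RNA of 3 embryos, and whether replicates are different clutches is not in the labels. The p-values therefore reflect only how far these samples lie from each other, and that spread may be technical.

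A ribosome is built from a large and a small subunit, each an RNA core clothed in many small proteins that are needed in nearly equal amounts. The messenger RNAs of these proteins begin with a terminal oligopyrimidine (TOP) tract, through which the kinase mTOR and the RNA-binding protein LARP1 control their translation together. In Xenopus, maternal ribosomal protein messages lose their poly(A) tails when the oocyte matures and leave the polysomes, and new messages accumulate after the embryo's own genome is switched on. The libraries were made from RNA selected for poly(A), so they do not count messages without a tail. In bulk embryos, fewer cells that express a gene and less of its RNA per cell cannot be told apart.

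Library totals lay between 11091927 and 15486533 counts. Among them, 3 libraries stood apart from the other 9. Transcripts of the 12 measured mitochondrially encoded genes took 14.1% of all counts in genistein 1, 8.37% in genistein 3 and 13.5% in control 1, against 0.553% to 4.23% in the other 9. The family's median fold changes and its slopes are given with and without these 3 libraries. The embryo's early zygotic markers were measured in all libraries, with 36 listed genes summing to 667 to 1323 CPM (counts scaled to library size). Of the listed markers of later differentiation, only 2 passed the filter on low counts, at 0.528 to 2.96 CPM together.

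Ribosomal protein transcripts made up a small share of each library, and that share was highest in the same 3 libraries. It was 0.521%, 0.180% and 0.457% of all counts in genistein 1 to 3. In BIO 1 to 3 it was 0.209%, 0.270% and 0.198%. In Chiron 1 to 3 it was 0.220%, 0.181% and 0.197%, and in control 1 to 3 it was 0.457%, 0.210% and 0.252%. The groups of genistein and control each held libraries at both ends of this range, while the BIO and Chiron libraries lay close together. The means were 0.386% ± 0.181 in genistein, 0.226% ± 0.0389 in BIO, 0.199% ± 0.0197 in Chiron and 0.306% ± 0.133 in control (SD, n = 3 each). The exact 95% binomial interval of genistein 1 was 0.517% to 0.525%, so counting error, the only error it covers, was far below the spread between libraries.

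The ribosomal protein share was high where the mitochondrial share was high. Since mitochondrial counts are part of the total, the share was also taken over all other counts, where it was 0.498% to 0.606% in the 3 libraries that stood apart and 0.183% to 0.278% in the other 9. Within the other 9, BIO 2 and control 3 had both the highest mitochondrial shares, 2.66% and 4.23%, and the highest ribosomal protein shares. Below 2% the ribosomal protein share did not rise with the mitochondrial share. BIO 1, BIO 3, control 2 and Chiron 1, with mitochondrial shares of 0.553% to 0.999%, had 0.198% to 0.220%. Chiron 2, genistein 2 and Chiron 3, at 1.40% to 1.62%, had slightly less, 0.180% to 0.197%. The share of mitochondrial transcripts is itself an RNA measurement, and whether the stage, the condition of the embryos or the preparation of the RNA moved both shares was not tested.

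**Figure D1:**
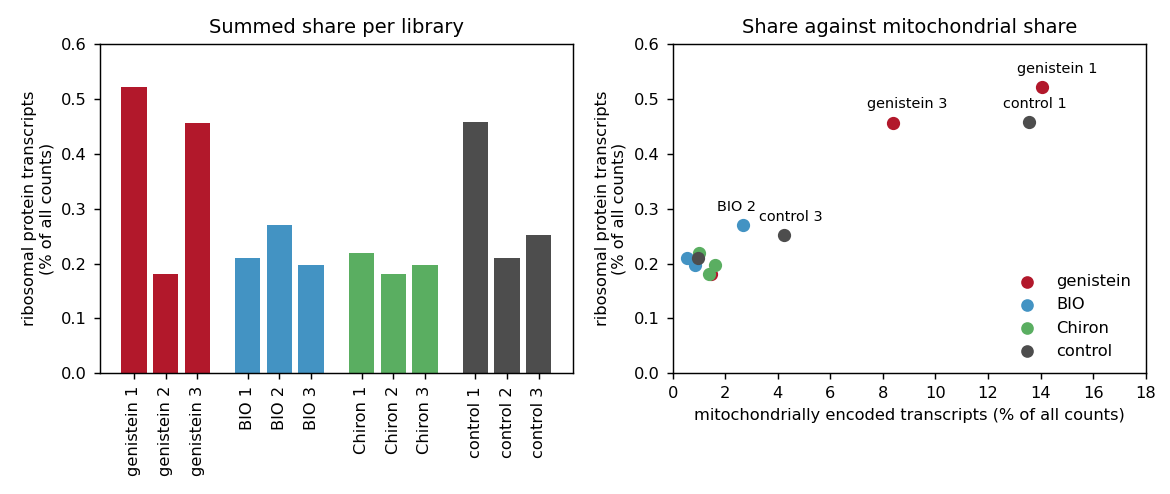
Left, the summed share of all counts that fell on the 141 ribosomal protein genes, with a bar for each of the 12 libraries (y axis in percent). Right, the same share plotted against the share of mitochondrially encoded transcripts (x axis in percent), a point per library coloured by group. Genistein 1, genistein 3 and control 1 stand at 0.457% to 0.521% and at 8.37% or more of mitochondrial counts, and the other 9 libraries lie at 0.180% to 0.270%.

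Large and small subunit genes kept nearly the same proportion in all libraries. Large subunit genes supplied 61.02% to 62.4% of the ribosomal protein counts in the 3 libraries that stood apart and 59.9% to 61.2% in the other 9. Small subunit genes supplied 34.9% to 36.2% in those 3 and 35.4% to 37.0% in the other 9. The 5 stalk genes supplied 2.71% to 3.00% in those 3 and 2.83% to 3.45% in the other 9.

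Counts were spread unevenly over the genes. Over the 12 libraries the mean was 13.9 CPM in the median gene, with a range of 0.967 CPM for rpl27a.S to 185 CPM for rpl3.S. The 20 genes with the most counts supplied 41.8% of the summed mean CPM, and 18 genes averaged under 5 CPM. CPM is not corrected for transcript length and no lengths were used here, so these values do not rank the genes by their number of messages.

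The large subunit gene with the most counts was rpl3.S, whose protein lies near the peptidyl transferase centre. It had 478, 124 and 347 CPM in genistein 1 to 3, 118, 149 and 118 in BIO 1 to 3, 122, 118 and 119 in Chiron 1 to 3, and 276, 109.7 and 142 in control 1 to 3. The 3 libraries that stood apart were the highest and the rest lay within a narrow band. For rpl15.S, another core protein of the large subunit, the same contrast was far wider: 336, 23.5 and 234 CPM in genistein, 20.2, 59.9 and 20.7 in BIO, 27.4, 19.99 and 23.6 in Chiron, and 203, 26.1 and 48.1 in control. Among the libraries that did not stand apart, BIO 2 and control 3 were again the highest.

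The proteins of rpl5 and rpl11 bind 5S rRNA, and in mammals they also bind MDM2, the ligase that targets p53, as does that of rpl23. Their genes differed widely in range. rpl11.L had 194, 12.5 and 116 CPM in genistein, 13.1, 28.9 and 10.3 in BIO, 14.0, 12.6 and 12.9 in Chiron, and 112, 13.7 and 31.7 in control. rpl5.L had 85.5, 32.4 and 69.6 CPM in genistein, 42.7, 51.5 and 42.7 in BIO, 45.4, 38.4 and 32.5 in Chiron, and 77.8, 39.97 and 50.2 in control. The highest library was 18.8 times the lowest for rpl11.L and 2.64 times for rpl5.L, although both proteins enter the ribosome as parts of one particle. For the L and S copies of rpl23 that ratio was 18.6 and 14.1.

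In the small subunit, rps12.L had the widest range of all 141 genes. It had 78.8, 6.11 and 52.5 CPM in genistein, 4.22, 13.4 and 4.76 in BIO, 7.14, 3.74 and 6.00 in Chiron, and 63.8, 6.38 and 13.4 in control, a 21.1-fold spread. rps15.L reached 19.9-fold and rps29.S, present as an S copy only, 15.9-fold. The messages of rps6, whose protein is the classical substrate of S6 kinase, were less spread out, at 4.50-fold for the L and 2.84-fold for the S copy. rpsa encodes a small subunit protein that is also known as the laminin receptor. Its S copy had 28.0, 11.4 and 19.8 CPM in genistein, 16.1, 20.5 and 15.8 in BIO, 17.0, 12.9 and 15.8 in Chiron, and 32.8, 17.0 and 18.9 in control, where BIO 2 was above genistein 3. The small subunit genes rps18.L and rps4x.S were among the flattest, with 1.84-fold and 1.86-fold spreads.

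The acidic stalk of the large subunit, which recruits elongation factors, is made of the products of rplp0, rplp1 and rplp2. rplp1.L, the only copy in the table, had 28.9, 8.17 and 21.4 CPM in genistein, 9.84, 12.6 and 9.65 in BIO, 11.1, 9.61 and 8.70 in Chiron, and 30.4, 12.2 and 13.4 in control. Ratios of highest to lowest were 3.07 and 2.31 for the L and S copies of rplp0, 3.72 for rplp1.L, 3.31 for rplp2.L and 8.47 for rplp2.S. All 5 stalk genes were highest in the 3 libraries that stood apart.

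Paralogs outside the standard set behaved unlike each other. rpl7l1.L, a paralog of rpl7 whose yeast counterpart is an assembly factor rather than a part of the finished subunit, was the flattest gene of the 141. It had 95.7, 77.6 and 88.7 CPM in genistein, 95.2, 96.6 and 84.8 in BIO, 90.9, 82.1 and 88.7 in Chiron, and 89.1, 84.1 and 85.2 in control, a 1.24-fold spread in which the 3 libraries did not stand out. rpl22l1.L, a paralog of rpl22, had 5.47, 1.07 and 5.76 CPM in genistein, 1.97, 1.63 and 0.965 in BIO, 1.97, 2.13 and 2.02 in Chiron, and 4.73, 1.55 and 1.63 in control. That gene followed the common pattern at a low count.

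Over all 141 genes, the highest library was a median of 3.39 times the lowest, more than 10 times for 17 genes and less than 2 times for 11. The highest 3 libraries were genistein 1, genistein 3 and control 1 for 127 genes, or 90.1%, against 21.5% of all genes tested. Among the 14 exceptions, rpl7l1.L, rpsa.L and rpl13a.L spread less than 2-fold, and rpl27a.S averaged 0.967 CPM.

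**Figure D2:**
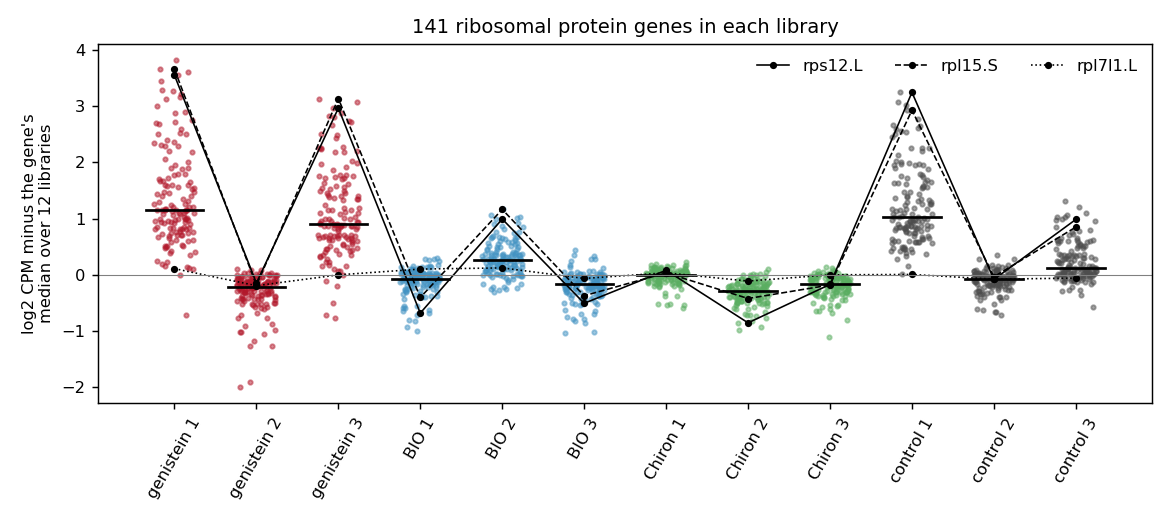
Each point is one of the 141 ribosomal protein genes in one library, as log2 CPM minus the gene's own median over the 12 libraries (y axis), with colours for groups and a bar at the median gene. Lines follow rps12.L and rpl15.S, among the widest ranges, and rpl7l1.L, the narrowest at 1.24-fold. The clouds of genistein 1, genistein 3 and control 1 lie mostly above 0, with BIO 2 and control 3 next.

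To relate each gene to the mitochondrial share, a slope was fitted within groups with edgeR's quasi-likelihood test over all genes of the table, with the share in percent as a covariate beside the 4 group means. A positive slope passed at a Benjamini-Hochberg adjusted p under 0.05 for 134 of the 141 ribosomal protein genes (95.04%), against 28.1% of all genes tested. A negative slope passed for 0 of the 141, against 28.5% of all genes. The median slope was 0.10 log2 units per percentage point, with a range of 0.01 to 0.27, and the median over all genes was -0.000599. At the median slope, 10 points of mitochondrial share went with a 2.05-fold higher level. The covariate was chosen because the joint pattern was already known, so the count describes how many of the genes share it and is no independent evidence that they do.

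By role, the slopes were alike. The median was 0.10 for large subunit genes, 0.10 for small subunit genes and 0.11 for stalk genes, and it was 0.10 for L and 0.10 for S homeologs. The 18 genes with slopes above 0.20 included both copies of rpl11, rpl15, rpl23 and rpl39, as well as rpl10.L, rpl10a.S, rpl22.S, rpl37.S, rpl38.S, rps12.L, rps15.L, rps15a.S, rps19.L and rps29.S. rpl31.L, whose protein lies at the exit of the nascent chain tunnel, had the smallest adjusted p, 1.85e-06, with a slope of 0.18 ± 0.02 (SE). Slopes of rpl22.S, rps19.S, rpl13.S, rpl10.L and rpl3.S, the next by p, were 0.21, 0.16, 0.15, 0.26 and 0.13. Mutations of rps19 are a known cause of Diamond-Blackfan anaemia in humans.

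A slope was not called for 7 genes. They included rpl7l1.L (0.02 ± 0.01), rpl26.L (0.01 ± 0.03), rpl7a.S, rpl32.L, rps27a.S and rpl35a.S, and over the 7 the adjusted p in edgeR's quasi-likelihood test were 0.0577 to 0.779. All 7 estimates were above 0. The 14 genes with a single homeolog in the table had slopes of 0.02 to 0.26. They included rpl7l1.L, rpl9.L, rpl10a.S, rpl14.S, rpl21.L, rpl22l1.L, rpl35a.S, rpl36a.L, rplp1.L, rps15a.S, rps21.S, rps24.L and rps29.S.

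Without genistein 1, genistein 3 and control 1, a positive slope was called for 31 of the 141 genes (22.0%), against 5.76% of all genes, and a negative slope again for 0, against 3.05%. In this fit 127 estimates were positive, with a median of 0.11, against 0.003 for all genes. It has 1 genistein library, which carries no information on the slope, and mitochondrial shares up to 4.23%. The genes called there included both copies of rpl11 and rpl15, rps12.L, rps15.L, rps29.S, rpl3.S and rpl10.L. Both copies of rplp0 had slopes close to 0 in it, at -0.02 for rplp0.L and -0.01 for rplp0.S, and neither was called.

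**Figure D3:**
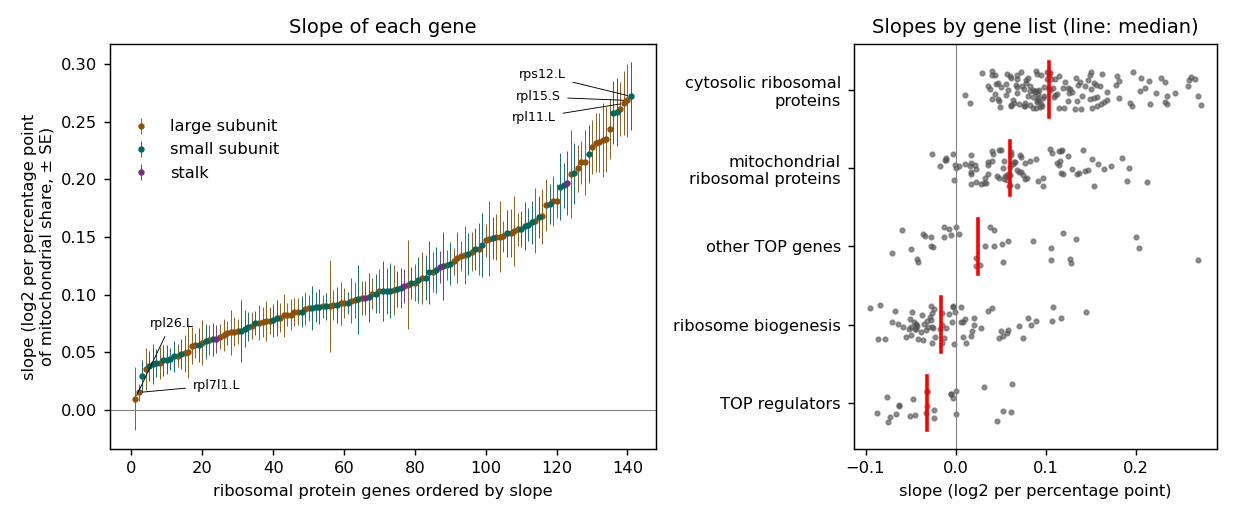
Left, the slope of each of the 141 ribosomal protein genes on the mitochondrial share, in log2 units per percentage point with its standard error, ordered from lowest to highest and coloured by subunit. Right, slopes of single genes (points) and their median (red line) in 5 gene lists. All 141 estimates are above 0, from 0.01 for rpl26.L to 0.27 for rps12.L, and the large and small subunit genes are mixed along the whole order.

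Other genes tied to ribosome synthesis are read against the same shares of all genes, 28.1% with a positive and 28.5% with a negative slope. Of 36 other TOP genes, mostly translation factors, 19 had a positive and 9 a negative slope, with a median of 0.02. Both copies of fau, which encodes a ribosomal protein fused to a ubiquitin-like peptide, were on the positive side, at 0.13 for fau.L and 0.11 for fau.S. So was rack1.L, which encodes a small subunit scaffold, at 0.13, and so were the elongation factor genes eef1b2.L (0.27) and eef1g.L (0.20). The poly(A)-binding protein gene pabpc1.L had -0.06. Of 76 genes for ribosome assembly and rRNA synthesis, 16 had a positive and 34 a negative slope, with a median of -0.02. Among 26 genes of TOP regulators 5 were positive and 16 negative, including larp1.S at -0.09 and mtor.L at -0.08. The 92 genes for proteins of the mitochondrial ribosome, which are nuclear, had 66 positive and 0 negative slopes with a median of 0.06.

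In treated embryos the question was whether any compound changed ribosomal protein transcripts. In genistein against control, edgeR's quasi-likelihood test called 0 of the 141 genes higher and 0 lower, against 0.362% and 3% of all genes. At an unadjusted p under 0.05 there were 2 higher and 2 lower, against 9.49% and 11.6% of all genes. DESeq2 called 0 higher and 1 lower, against 3.65% and 6.02%. The median log2 fold change was 0.32, against 0.03 for all genes, and 117 of the 141 estimates were positive, against 52.9% of all. Without the 3 libraries the median was -0.32, against -0.03 for all genes, and 128 estimates were negative. The direction of the family as a whole therefore turned with these libraries. Only genistein 2 is left of its group in that fit, so its spread is borrowed from the other groups. There rpl37.L and rpl4.S were called lower and 0 genes higher, against 5.15% and 1.80% of all genes. Without genistein 2 instead, edgeR called 20 genes higher (14.2%) and 1 lower, against 12.3% and 13% of all genes, so the share of higher genes was near that of the table.

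The gene with the smallest p in this comparison was rpl26.L, one of 24 genes with a negative estimate over all libraries. Its protein sits at the tunnel exit and, in human cells, binds p53 mRNA. It had 1.52, 1.73 and 1.54 CPM in genistein, against 3.26, 2.39 and 3.98 CPM in control, and the groups did not overlap, which was so in the lower direction for this gene alone of the 141 and for 9.67% of all genes. The log2 fold change was -0.997 ± 0.27 (SE) with an adjusted p of 0.0719 in edgeR's quasi-likelihood test. BIO had 2.67, 4.04 and 2.96 CPM of rpl26.L and Chiron 2.65, 1.93 and 2.02, so that genistein was the lowest group. Without the 3 libraries the log2 fold change against control was -0.88 ± 0.45, with 1 genistein library left.

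For rpl4.S genistein was below control both among the libraries that stood apart and among the others. It had 74.6, 34.8 and 61.9 CPM in genistein, against 92.7, 61.7 and 61 CPM in control. Among the libraries that did not stand apart, genistein 2 was far below control 2 and control 3. Among the 3 that did, genistein 1 and genistein 3 were below control 1, and genistein 3 was level with control 2 and control 3. The log2 fold change was -0.33 ± 0.25 over all libraries and -0.83 ± 0.15 without the 3, where edgeR's adjusted p was 0.0124. For rpl37.L genistein had 5.56, 0.66 and 5.28 CPM, against 7.26, 2.39 and 4.05 in control. Its lower level without the 3 libraries thus rests on the 0.66 CPM of genistein 2, which is few counts. The other copies had log2 fold changes of -0.39 ± 0.16 for rpl4.L and -1.47 ± 0.82 for rpl37.S in that fit. rps23.S, whose protein helps form the decoding centre, had 25.7, 7.60 and 26.3 CPM in genistein, against 15.9, 7.48 and 8.02 in control, and its log2 fold change of 0.93 became -0.04 without the 3 libraries.

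With the mitochondrial share as a covariate, genistein against control gave 6 ribosomal protein genes higher and 6 lower, against 11.4% and 12.6% of all genes. The higher genes were rpl31.L (0.76 ± 0.16), rpl10.L (0.79 ± 0.25), rps23.S, rpl3.S, rpl35.L and rpl35.S. In the fit of group means without the 3 libraries, 0 of these 6 were called and 4 were below 0, with log2 fold changes of -0.30 for rpl10.L, -0.04 for rps23.S, -0.03 for rpl3.S and -0.09 for rpl35.S, against 0.27 for rpl31.L and 0.10 for rpl35.L. The lower genes were rpl26.L (-1.01 ± 0.29), rpl26.S (-0.75 ± 0.24), rpl27a.S, rpl4.S, rpsa.S and rps4x.L. Without the 3 libraries these 6 were also below 0, at -2.23 for rpl27a.S to -0.50 for rps4x.L. That fit holds genistein 2 alone of its group, and 128 of the 141 genes were below 0 in it. A negative sign there therefore does not set single genes apart from the family. With the covariate and all libraries, the median over the 141 genes was 0.13. rpl27a.S rested on 3 to 13 counts per genistein library and 16 to 27 per control library.

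In BIO against control, 0 genes were called higher and 0 lower by edgeR, against 0.016% and 0.0106% of all genes. DESeq2 also called 0 and 0, against 0.229% and 0.378%. At an unadjusted p under 0.05, 0 genes were higher and 3 lower, against 2.07% and 3.79%. The median log2 fold change was -0.45, and it was -0.02 without the 3 libraries, among which control 1 is the only one of this comparison. rps27l.S had the smallest p. This paralog of rps27, a p53 target in mammals, had 0.773, 1.04 and 1.103 CPM in BIO, against 4.65, 1.48 and 2.91 CPM in control, a log2 fold change of -1.61 ± 0.49 with an adjusted p of 0.631, and of -1.17 ± 0.36 with 0.241 without the 3 libraries. All 3 BIO libraries were below all 3 controls for 7 of the 141 genes (4.96%), rps27l.S among them, against 7.06% of all genes.

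In Chiron against control edgeR called 0 genes higher and 0 lower, against 0% and 0% of all genes, and DESeq2 called 0 and 0, against 0.165% and 0.128%. At an unadjusted p under 0.05, 0 genes were higher and 18 lower (12.8%), against 2.21% and 3.81% of all genes. The median log2 fold change was -0.60, with 140 of 141 estimates negative, against 47.6% of all. Without the 3 libraries, of which this comparison holds control 1, the median was -0.23 with 127 negative. The median over all genes was then -0.007. All 3 Chiron libraries were below all 3 controls for 32 genes (22.7%), against 9.35% of all genes. Among these were rpl22.L, with 7.82, 8.64 and 8.97 CPM in Chiron and 34.8, 10.7 and 14.98 CPM in control, and rps29.S, with 13.7, 8.64 and 12.7 CPM in Chiron and 120.4, 14.96 and 29.8 CPM in control. For both genes control 1 was far above the other controls. rpl24.L, whose protein bridges the subunits, had 4.06, 2.97 and 3.84 CPM in Chiron and 10.2, 6.38 and 5.47 in control, a log2 fold change of -1.01 ± 0.37 with an adjusted p of 0.645 in edgeR's test, and of -0.73 ± 0.22 with 0.251 without the 3 libraries.

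Between genistein and BIO the sign of the median again depended on the 3 libraries, and without them genistein 2 alone is left of its group. Genistein against BIO gave 0 genes higher and 0 lower by edgeR, against 0.692% and 2.94% of all genes. At an unadjusted p under 0.05 there were 59 higher (41.8%) and 1 lower, against 18% and 14.6%. DESeq2 called 39 higher (27.7%) and 1 lower, against 12.6% and 8.02%. Without genistein 2, the genistein library with a low mitochondrial share, edgeR called 109 higher (77.3%), against 24.2% of all genes, and without control 1 it called 24, against 7.06%. The median log2 fold change was 0.73 over all libraries and -0.26 without the 3, where 0 genes were called higher and 2 lower, against 0.563% and 3.53% of all genes. For rpl23.L, genistein had 36.5, 3.63 and 25.8 CPM and BIO had 1.97, 6.19 and 2.34 CPM, so that the groups overlapped through genistein 2.

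Genistein against Chiron gave 0 genes higher and 0 lower by edgeR, against 0.181% and 2.17% of all genes. At an unadjusted p under 0.05 there were 91 higher (64.5%) and 0 lower, against 18.5% and 14.3%. DESeq2 called 68 higher (48.2%) and 0 lower, against 13.8% and 7.13%. Without genistein 2 edgeR called 121 higher (85.8%), against 24.7% of all genes, and without control 1 it called 48, against 7.97%. The median log2 fold change was 0.91. Without the 3 libraries, with genistein 2 alone left of its group, it was -0.06, against 0.0007 for all genes. In that fit 52 estimates were positive and 89 negative. rps10.L, a small subunit gene, had 30.9, 18.5 and 26.8 CPM in genistein and 18.2, 14.3 and 13.3 CPM in Chiron, with all 3 genistein libraries above. Its log2 fold change was 0.73 ± 0.21 with an adjusted p of 0.0750 in edgeR's test, and 0.28 ± 0.19 with 0.499 without the 3 libraries. The groups did not overlap for 16 genes that were higher (11.3%), against 13% of all genes.

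BIO against Chiron is the comparison that holds none of the 3 libraries in either group. edgeR called 0 genes higher and 0 lower, against 0% and 0% of all genes. DESeq2 called 0 and 0, against 0% and 0.0106%, and 0 and 0 passed an unadjusted p under 0.05, against 0.41% and 0.745%. The median log2 fold change was 0.18, with 125 of 141 estimates positive, against 51.2% of all. When single libraries were left out, this median ranged from 0.03 to 0.26. The ribosomal protein share was 0.270% in BIO 2, against 0.209% and 0.198% in BIO 1 and BIO 3. rpl26.L had 2.67, 4.04 and 2.96 CPM in BIO and 2.65, 1.93 and 2.02 CPM in Chiron, a log2 fold change of 0.55 ± 0.26. All 3 BIO libraries were above all 3 Chiron libraries for 11 genes (7.80%), against 4.59% of all genes.

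**Figure D4:**
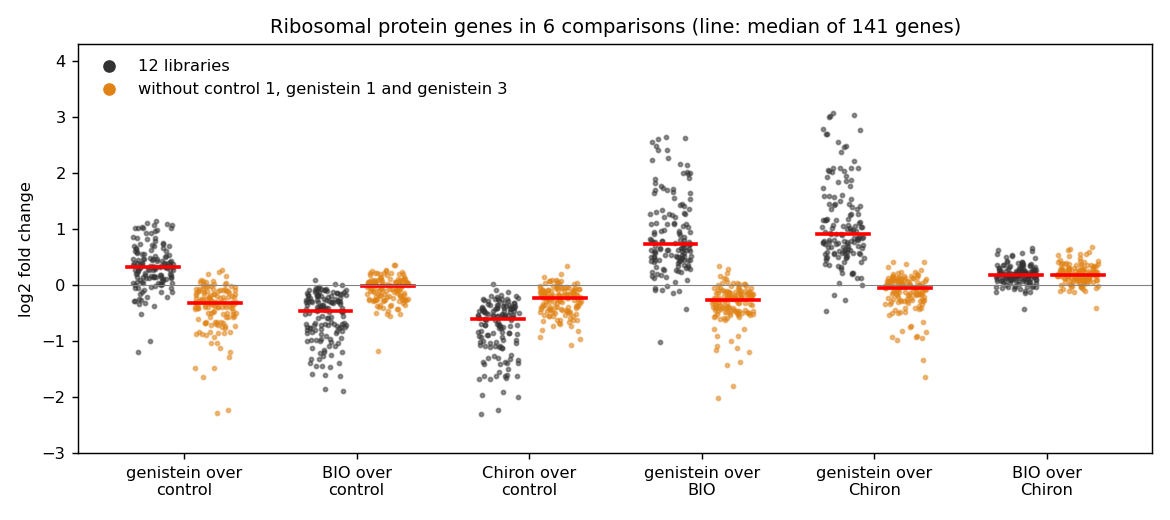
Log2 fold changes of the 141 ribosomal protein genes (points) in the 6 comparisons, the first-named group over the other, with all 12 libraries (black) and without control 1, genistein 1 and genistein 3 (orange). Red lines mark medians. In genistein over control the median is 0.32 with all libraries and -0.32 without the 3, and in BIO over Chiron it is 0.18 and 0.19.

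The 63 homeolog pairs were compared as the log2 ratio of L to S counts within each library, which does not depend on library scaling. Ratios are not corrected for the lengths of the L and S transcripts, and the sources used here do not say how reads that match both copies were counted. In control, limma called 21 pairs with more L counts and 21 with more S counts at an adjusted p under 0.05, against 43.6% and 38.7% of 5223 pairs of the table. Each count is 33.3% of the ribosomal protein pairs. The median ratio was -0.09 on the log2 scale, against 0.08 for all pairs. For 35 pairs one copy had more counts in all 12 libraries, a count that was not made for the other pairs of the table.

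The copies leaned most to L for rps27a, whose product is a ubiquitin fusion, with a log2 ratio of 1.94 ± 0.13 (SE) in control. Summed over the 3 controls it had 1078 L and 277 S counts, an L share of 79.6% (exact 95% interval 77.3% to 81.7%, which covers counting error only). Next came rps3, which lines the mRNA entry channel, at 1.55, rps27l at 1.54, rps10 at 1.44 and rpl23a, a docking site at the tunnel exit, at 1.38. The copies leaned most to S for rps19, at -3.06 ± 0.19, where 11.7% of counts were from L. Ratios of rpl8, whose protein lies near the peptidyl transferase centre, rps3a, rpl18 and rps25 were -2.85, -2.32, -1.87 and -1.84. Each of these 10 pairs kept its side in all 12 libraries.

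Others were close to even. rplp0 had 50.8% of its control counts from L and rpl12 had 50.0%, with log2 ratios of 0.02 ± 0.12 and 0.00 ± 0.08. Of the MDM2-binding proteins' genes, rpl5 had 61.1% and was called, while rpl11 with 56.1% and rpl23 with 47.5% were not. rps4x and rpsa, with 27.6% and 42.1% from L, were called for more S counts. Summed over the 63 pairs, L copies held 43.6% to 44.9% of counts in the 3 libraries that stood apart and 44.8% to 45.9% in the other 9. Over the other pairs of the table the L share was 52.0% to 52.2% and 51.9% to 52.1%.

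**Figure D5:**
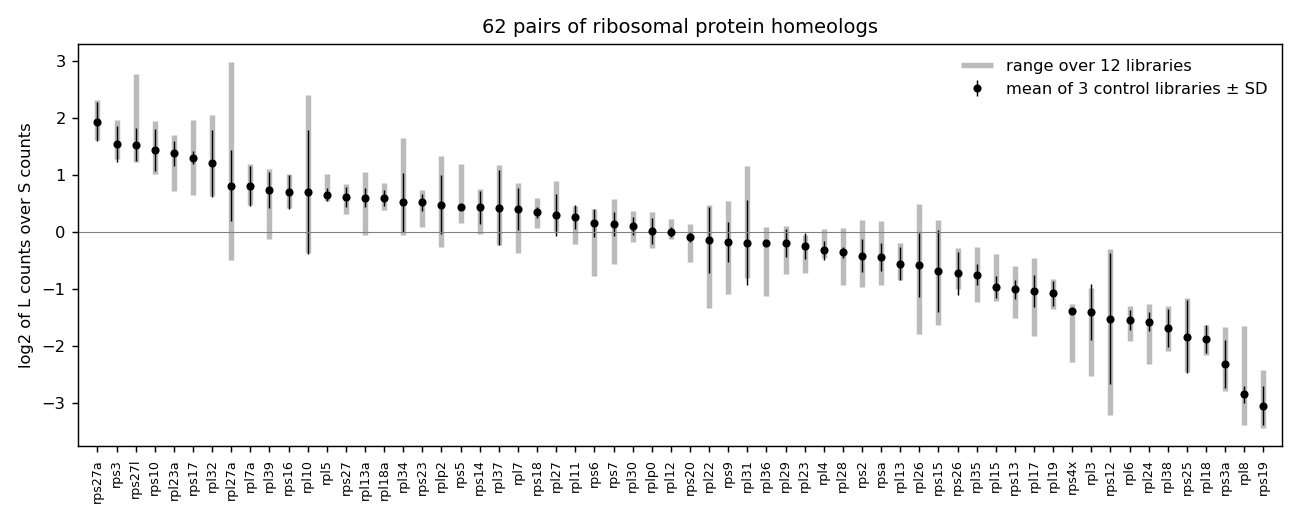
Log2 of L counts over S counts for 62 of the 63 pairs of ribosomal protein homeologs, ordered by the mean of the 3 control libraries (points, with SD). Grey bars give the range over the 12 libraries, and values above 0 mean more L counts. The means run from 1.94 for rps27a to -3.06 for rps19, and the grey bars of rps12, rpl10 and rpl27a are among the longest.

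The balance of L and S was also compared between each compound and control. In genistein against control limma called 1 pair, rpl27a, higher in its L share and 0 lower, against 3.08% and 3.64% of all pairs, and that call depended on the settings. Its log2 ratio was 2.21, 2.40 and 2.99 in genistein, against 1.48, 0.24 and 0.74 in control, a difference of 1.72 ± 0.42 with an adjusted p of 0.0402. The groups did not overlap, but the pair had 127 L and 62 S counts over the controls, and with a pseudocount of 5 in place of 0.5 limma's adjusted p was 0.0711, and with the replicate number as a block it was 0.0745. The call was also lost, at limma's adjusted p of 0.0523 to 0.13, when any one of genistein 1, genistein 3, BIO 2, Chiron 1, Chiron 2, Chiron 3, control 2 and control 3 was left out, and at 0.113 without the 3 libraries that stood apart. In BIO against control limma called 0 pairs, against 0.0957% higher and 0.0574% lower in the table. In Chiron against control limma called 0 pairs, against 0% and 0%.

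The ratio moved with the mitochondrial share for some pairs, in both directions. limma called 9 pairs (14.3%) with a higher and 11 (17.5%) with a lower L share as the mitochondrial share rose. Over all pairs it called 11.6% and 12.4%. The family's shares were near these, so the pairs below are single examples and the counts no result about the family. For rps12, known from Drosophila for its part in cell competition, the log2 ratio was -0.30, -2.66 and -0.57 in genistein, -3.10, -1.68 and -3.09 in BIO, -2.49, -3.22 and -2.55 in Chiron, and -0.29, -2.57 and -1.70 in control. The S copy therefore held more counts in every library, and the copies came closest in the 3 libraries that stood apart. While rps12.L spread 21.1-fold, rps12.S had 96.7, 38.9 and 78.2 CPM in genistein, 36.4, 43.1 and 40.9 in BIO, 40.2, 35.1 and 35.3 in Chiron, and 78.2, 38.2 and 43.6 in control.

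For rpl10, whose protein joins the large subunit late in its assembly, the ratio was 2.41, -0.04 and 2.08 in genistein, -0.36, 0.52 and 0.00 in BIO, 0.19, 0.19 and 0.07 in Chiron, and 1.81, -0.38 and 0.67 in control. Counts of L and S were thus close to even in most libraries and leaned to L in the 3. rps15, rpl31 and rpl34 had the next highest slopes, 0.11, 0.11 and 0.08 log2 units per percentage point. rpl3 went the other way: its ratio was -2.53, -1.44 and -2.16 in genistein, -1.12, -1.34 and -0.98 in BIO, -1.13, -1.20 and -1.08 in Chiron, and -1.97, -1.04 and -1.21 in control, a slope of -0.08 ± 0.01. rpl26, rplp2, rpl22 and rpl7 also had slopes below 0, at -0.11, -0.10, -0.10 and -0.06. Without genistein 2 limma called 8 pairs for this slope, a count given without its share of all pairs. Without the 3 libraries it called 0, as in the whole table.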

How the data were processed

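Strand-specific poly(A) RNA-seq was measured in 12 libraries, each from 60 ng of RNA per the labels' protocols. The authors deposited whole-number counts per gene, not normalized. STAR 2.5.2b and edgeR are named in the submitters' processing notes, and the genome build, annotation and counting tool are not stated in the sources used here. Gene members and lists were chosen with earlier results of these data known. All 141 names were matched as written, and 132 of them are RefSeq symbols of the Xenopus laevis assembly version 10.1.

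The analysis used edgeR 4.0.16 (R 4.3.3): filterByExpr, TMM, 1 quasi-likelihood fit of 4 group means to 12 libraries, and Benjamini-Hochberg adjustment over 18791 genes at 0.05. CPM of single genes use TMM-scaled library sizes, and the summed CPM of the marker lists use library totals. The common biological coefficient of variation was 22.4%. Each standard error was derived from the F statistic. A count of 3 corresponds to 0.194 to 0.270 CPM of a library's total. A second fit added the mitochondrial share. L over S ratios, log2((L + 0.5)/(S + 0.5)), were tested with limma 3.58.1 over pairs with at least 120 counts. Members were named by rule: most counts, smallest p or called, widest range, most uneven pairs, and listed paralogs, stalk and MDM2-binding genes. Genes named beyond it (rpl37.L, rpl4.S, rpl38, rpl39, rpl12 and others called in an alternative or used as examples) were chosen after their values were seen. DESeq2 1.42.0, other scalings, leaving out libraries and a replicate block were alternatives. The fit of group means and the slope on the mitochondrial share were tested on simulated counts. These counts held no correlation between same-numbered replicates and, for the fit of group means, no joint shift of libraries. Those features of the data are therefore not covered. The comparison of L over S between groups was tested on simulated ratios. The alternatives were not tested in this way. Same-numbered replicates deviated together, at a correlation above 0.1, in 5 of 18 pairs. The correlation was 0.734 for genistein 1 with control 1, 0.809 for genistein 2 with control 2 and -0.316 for genistein 3 with control 3. For BIO with control of the same number it was -0.405, -0.611 and 0.186 in replicates 1, 2 and 3. The main fits did not pair the samples, and whether the numbers mark a shared clutch or batch was not tested. Some genes of the family are counted but not reported by name here.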

Additional observations from a re-analysis of the deposited data

How the results depend on the processing

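Fits that left out a single library are counted apart. Of the counts and shares, 135 alternative values stayed close to the main value and 21 did not. Close means within 1.5 times for a count and within the SD of the group for a share. Of the values for single genes, pairs and medians, 495 stayed the same and 40 lost their call. Another 13 gained a call, 9 turned in sign and 7 medians moved. In genistein against control the mitochondrial covariate gave 6 genes higher and 6 lower, DESeq2 gave 1 lower and leaving out the 3 libraries that stood apart gave 2 lower. Leaving out single libraries gave 0 to 20 higher, with 20 without genistein replicate 2, and 0 to 1 lower. In genistein against BIO, DESeq2 gave 39 higher and 1 lower, library totals alone 1 lower, and leaving out the 3 libraries 2 lower. Single libraries left out gave 0 to 109 higher, with 109 without genistein 2 and 24 without control 1, and 0 to 1 lower. In genistein against Chiron DESeq2 gave 68 higher, and single libraries left out gave 0 to 121, with 121 without genistein 2 and 48 without control 1. Positive slopes numbered 31 without the 3 libraries. The changed L over S pair in genistein was lost (0 pairs) with a pseudocount of 5 and with the replicate block, and 0 to 6 pairs were called when single libraries were left out, with 6 without genistein 2. Slopes of L over S were called for 11 pairs with the replicate block and 0 without the 3 libraries. When single libraries were left out they were called for 8 to 21 pairs, with 8 without genistein 2. The shares of all pairs called with the block or without single libraries are not given here. These counts of pairs are therefore not results about the family. The block changed no other count by over 1.5 times. The cause was not tested for any of these. Counted over L or S copies alone, the share averaged 0.171% in genistein (L), 0.109% and 0.116% in BIO, 0.0960% and 0.103% in Chiron and 0.141% and 0.164% in control, lower because fewer genes are summed.

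Without the 3 libraries the family's positive estimates numbered 13 of 141 in genistein against control, against 117 with all libraries, and 14 in genistein against BIO, against 133. The share of all genes with a positive estimate is not given for that setting. Its median log2 fold change over all genes was -0.03 in genistein against control and -0.02 in genistein against BIO. Among the genes named by rule, those that turned in sign were rps23.S in genistein against control (-0.0402) and rpl3.S in genistein against BIO (-0.0523) without the 3 libraries. Slopes turned for rpl6.S (-0.00898), rps10.L (-0.0351), rpl7a.S (-0.150), rplp0.L (-0.0207) and rplp0.S (-0.0123) without the 3 libraries, for rpl7l1.L (-0.000993) and rpl26.L (-0.00607) with library totals alone, and for rpl26.L without control replicate 2 (-0.0153, with 0.0246 as the highest value when a single library was left out). Genes of a few CPM, such as rpl27a.S and rps27l.S, rest on few counts, which limits the precision of their values.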

Other observations

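The stage of the embryos was looked at through fixed lists of stage markers, chosen with earlier results of these data known. The 36 early zygotic genes, which include the Wnt targets sia1 and nodal3, summed to 702, 667 and 746 CPM in genistein, 1323, 1228 and 1295 in BIO, 1280, 953 and 1138 in Chiron, and 828, 767 and 727 in control. Within genistein and within control the libraries with a high ribosomal protein share had the highest sums, and all 6 libraries were below those of BIO and Chiron. Because the list includes Wnt targets and BIO and Chiron activate Wnt signalling, stage and treatment cannot be told apart in this difference. For single genes of the list, 27 had a positive and 1 a negative slope on the mitochondrial share, with a median of 0.13, against 28.1% positive and 28.5% negative over all genes. The list of 21 maternal genes summed to 4624, 3707 and 4516 CPM in genistein, 3597, 3491 and 3646 in BIO, 3489, 3628 and 3563 in Chiron, and 3763, 3553 and 3710 in control, and 15 of them had a positive and 2 a negative slope, to be read against the same shares of all genes.

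Some genes for ribosome assembly and some other TOP genes were called lower in the comparisons with genistein. Genistein 1 and genistein 3 are among the libraries that stood apart. The 76 assembly genes summed to 4681, 6953 and 5461 CPM in genistein 1 to 3 and to 5196, 6995 and 6304 in control 1 to 3. These sums were lowest in the libraries that stood apart, and the calls below are not given without those libraries. In genistein against control 3 of 76 assembly genes were lower, against 3% of all genes, namely rrp9.S (log2 fold change -0.85 ± 0.15, SE), polr1c.L (-0.66 ± 0.13), a subunit of RNA polymerases I and III, and rrp12.S (-0.67 ± 0.13). Adjusted p in edgeR's quasi-likelihood test were 0.0134, 0.0193 and 0.0194. Of 36 other TOP genes, eef2.1.S (-0.56 ± 0.13) and eif3e.L (-0.37 ± 0.09) were lower. Each of the 5 was also lower in genistein against BIO, a comparison that shares the genistein libraries. There 6 of the 76 assembly genes and 2 of the 36 other TOP genes were called lower. These were larger shares than the 2.94% of all genes. In genistein against Chiron 2 assembly genes and 1 other TOP gene were called lower, against 2.17%. For the assembly genes, the shares called lower against control and against Chiron were near those of all genes. For BIO and Chiron against control, 0 genes of either list were called in either direction. The 26 TOP regulators and the 92 mitochondrial ribosomal protein genes had 0 calls in the 6 comparisons of group means.

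The table lists rps9 once without a suffix beside rps9.L and rps9.S. The unsuffixed entry had 10.3, 2.89 and 8.84 CPM in genistein, 4.92, 6.64 and 5.65 in BIO, 4.86, 4.51 and 5.26 in Chiron, and 9.55, 5.16 and 5.54 in control, and so was highest in the 3 libraries that stood apart.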
